A study of Mus musculus with 17 samples.

Results

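The 40 genes described here encode the machinery that moves proteins into, along and out of the primary cilium and that guards its base. They were chosen by name as a list of cilium transport and transition zone genes, and a member was kept where its mean count over the 17 libraries of the series was at least 10. All 40 of the 40 listed genes met this rule, among 56691 gene rows in the table of which 17299 met the same minimum. By role they were 11 subunits of intraflagellar transport complex B (IFT-B), 4 of complex A (IFT-A), 4 subunits of the transport motors, 6 subunits of the BBSome together with its GTPase Arl6, 4 genes of the ARL and lipidated cargo system, 4 cilium-bound Hedgehog regulators and 6 transition zone genes.

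The primary cilium is a single, non-motile protrusion of the plasma membrane that most astrocytes carry. Trains of IFT-B and IFT-A proteins are carried outward by kinesin-2 and back by dynein-2, the BBSome removes membrane receptors, and the transition zone forms a gate at the base. Hedgehog signaling in mammals runs through this organelle: Smoothened gathers in the ciliary membrane when the pathway is on, and the GLI factors are processed on their way through the ciliary tip.

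The libraries came from astrocytes of C57BL/6 mouse pups, taken at postnatal day 2 from whole brain without olfactory bulbs and cerebellum and purified by immunopanning, which removes CD45+ and O4+ cells and then captures HepaCAM+ cells on antibody-coated dishes. SAG, a small-molecule agonist of Smoothened, was given at 500 ng/ml to 3 cultures for 3 days from day 3 in vitro, with 3 DMSO cultures as vehicle controls. FGF2 (4 cultures) and FGF10 (3 cultures) were each given at 50 ng/ml for 7 days from day 2 in vitro, with 4 PBS cultures as controls. The labels give no engineered allele for any group. The study describes its replicates as biological replicates and as sample pools. The sources used here do not say which animals went into each pool, so p-values measure only the spread between these samples.

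Total counts per library were between 17481727 and 68342287. The astrocyte and microglia sums fitted the label: the summed level of 10 astrocyte genes was 3394 to 5471 CPM (counts relative to the library size, scaled by TMM) in the 17 libraries, and that of 8 microglia or macrophage genes was at most 4.35 CPM, with Csf1r, Aif1 and C1qb at 0 throughout. The astrocyte genes were uneven, with Slc1a3 at 980 to 1588 CPM, Gfap at 10.8 to 402 CPM and S100b at 0 to 22.3 CPM. The lists for endothelial or mural cells, fibroblasts and neurons summed to at most 74.7, 67.4 and 169 CPM, and the oligodendrocyte lineage list to 137 to 621 CPM. Pdgfra is in both the fibroblast and the oligodendrocyte lineage list. It was at 49.7 CPM in PBS replicate 1, where the fibroblast sum was highest. The agonist check also held, since the Hedgehog target Ptch1 rose from 83.9 ± 17.7 CPM (SD, n = 3) to 468 ± 12.8 CPM (SD, n = 3) (log2(fold-change) 2.50, SE 0.22, adjusted p = 0.00173 by edgeR's quasi-likelihood test), while Gli1 and Hhip had no count in any DMSO library and 6.67 to 38.2 and 10.3 to 16.97 CPM in SAG. Other lists also differed in level between groups, with 0 of their genes called between SAG and DMSO. The summed level of 10 ependymal or motile cilium markers was 292 to 342 CPM in DMSO and 118 to 211 CPM in SAG, and that of 10 cell cycle genes was 181 to 253 CPM in DMSO and 272 to 447 CPM in SAG. Single genes made up much of these sums. Foxj1 alone was at 143 to 231 CPM in DMSO and 69.7 to 139 CPM in SAG, and Top2a at 54.5 to 141 and 96.6 to 221 CPM. Of the motile cilium markers, 8 were tested and 8 had a log2(fold-change) below 0. The oligodendrocyte lineage sum was 226 to 330 CPM in DMSO and 146 to 173 CPM in SAG. In the FGF experiment the motile cilium sum was 423 to 691 CPM in replicates 1 and 2 of all 3 groups and 88.8 to 263 CPM in replicates 3 and 4, against 196 to 355 and 1090 to 1681 CPM for the cell cycle sum. Within these sums Foxj1 was at 302 to 448 and 78.6 to 205 CPM, and Top2a at 53.8 to 210 and 531 to 789 CPM. The motile cilium markers are expressed by ependymal cells and the cell cycle genes by dividing cells, which resorb their primary cilium, and the part of these lists in the results below was not tested.

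Promoters were read first, because many cilium genes are switched on by RFX transcription factors, which bind a 14-base element called the X-box. RefSeq promoter sequences (GRCm38.p6, 250 bases before to 50 bases after the start of transcription) were found for 37 of the 40 members, the exceptions being Ift80, Ift81 and Ift122. The pattern GTNNCC, 2 free bases and GGNAAC, with N for any base and searched on both strands, occurred in 8 of these 37 promoters (21.6%) and in 403 of the 27025 promoters of all genes (1.49%). A looser pattern that contains the first (GTNNC, 4 free bases and GNNAC) occurred in 11 members (29.7%) and in 8.13% of all genes. A match describes the letters of the window and is not a measured binding site. The 9 matches in the 8 promoters are shown because they are what these members share beyond their role. Each line reads 5′ to 3′ on the strand of the gene, with the matched bases in capitals, and the match to the pattern as written lies on the opposite strand for Bbs1, Ift57, Tctn2 and the first of the Ift22 windows.
Bbs1, chr19:4906605-4906634: ctgagctgGTTGCCAAGGCGACgcctggga
Bbs4, chr9:59353464-59353493: ctcagctgGTCGCCCGGGAAACggtcggct
Bbs7, chr3:36613489-36613518: gcgccccgGTTGCCTTGGAAACcggccagc
Ift22, chr5:136908079-136908108: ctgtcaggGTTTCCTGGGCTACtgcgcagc
Ift22, chr5:136908109-136908138: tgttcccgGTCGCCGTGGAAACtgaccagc
Ift57, chr16:49699199-49699228: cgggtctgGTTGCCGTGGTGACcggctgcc
Mks1, chr11:87853183-87853212: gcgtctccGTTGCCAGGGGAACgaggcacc
Tctn1, chr5:122264411-122264432: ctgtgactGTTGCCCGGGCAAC
Tctn2, chr5:124598679-124598708: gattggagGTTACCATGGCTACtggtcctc
Counting the start of transcription as base 1, the match began 121 bases before it in Bbs7, 87 in Ift57, 63 and 33 in Ift22, 62 in Tctn2 and 24 in Mks1. In Bbs1, Bbs4 and Tctn1 it began inside the transcript, at bases 2, 24 and 37.

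Mean levels of the members ranged from 3.16 to 147 CPM. Because reads were taken from the 3′ end of each transcript, a CPM level does not grow with transcript length, and levels of different genes are given here as 3′-end CPM. Summed over all 40 members the level was 979 to 1499 CPM per library, lowest in FGF2 replicate 4 and highest in DMSO replicate 1. The highest means over the 17 libraries were those of Arl3 (147 CPM), Ift20 (116 CPM), Kifap3 (91.4 CPM), Kif3a (87.9 CPM) and Ift74 (70.4 CPM), and the lowest were those of Tctn3 (3.16 CPM) and Bbs5 (4.54 CPM). Neighbors in this order overlapped in their ranges over the libraries in every case. The spread between replicates was wider for low members: the coefficient of variation within groups was 17.2% to 45.0% for the 10 highest members and 66.7% to 156% for the 10 lowest. A count of 0 in at least 1 library occurred in 9 of the 40 members (22.5%), against 34.3% of the 10724 gene rows whose mean count lay in the range of the members. In bulk RNA, fewer cells that express a gene and less RNA per cell cannot be told apart.

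**Figure D1:**
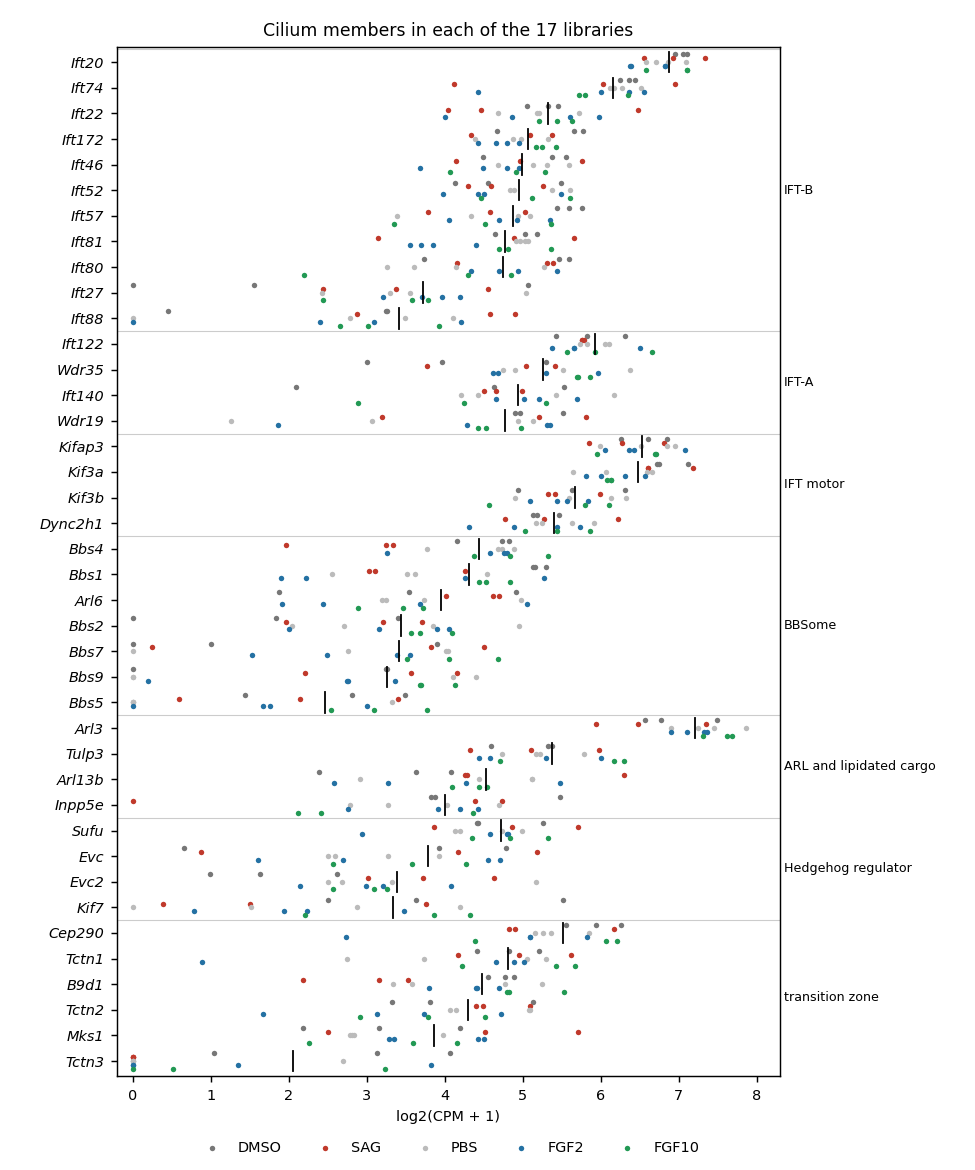
Level of each of the 40 members in each of the 17 libraries as log2(CPM + 1), grouped by role and ordered by mean level, with color for the group and a vertical bar for the mean over the libraries. The points of the 5 groups lie mixed for most members, and the scatter widens toward the low members such as Tctn3 and Bbs5.

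IFT-B is the part of the train that carries tubulin and other cargo outward. Its 11 genes summed to 469 to 508 CPM in DMSO, 364 to 493 in SAG, 385 to 446 in PBS, 233 to 459 in FGF2 and 412 to 426 in FGF10, with FGF2 replicate 4 lowest. Ift20, a subunit that also sorts cargo at the Golgi, was the highest and the steadiest of them. The level of Ift20 was 133, 136 and 123 CPM in DMSO, 93.4, 120.4 and 161 CPM in SAG, 94.9, 136, 116 and 103 CPM in PBS, 113, 113, 83.2 and 82.2 CPM in FGF2 and 94.5, 137 and 137 CPM in FGF10. The groups overlapped in every comparison. For Ift74 the values were 85.5, 81.5 and 75.3 CPM in DMSO, 122, 64.5 and 16.4 CPM in SAG, 76.2, 90.9, 68.3 and 71.02 CPM in PBS, 81.4, 93.5, 63.05 and 20.4 CPM in FGF2 and 51.7, 80.4 and 54.8 CPM in FGF10. Ift81 was at 31.7, 35.4 and 24.02 CPM in DMSO and 49.7, 7.82 and 28.6 CPM in SAG, and at 31.8, 32.7, 30.1 and 29.3 CPM in PBS, 20.1, 13.4, 10.7 and 12.01 CPM in FGF2 and 40.4, 27.1 and 24.9 CPM in FGF10. Ift74 and Ift81 form the pair that binds tubulin. In Ift81 the 4 FGF2 libraries lay below all PBS and all FGF10 libraries, whereas the SAG libraries spanned the range of all others. The level of Ift57 was 53.2, 42.4 and 47.5 CPM in DMSO, 22.9, 12.8 and 31.6 CPM in SAG, 19.3, 9.44, 29.7 and 33.1 CPM in PBS, 39.99, 25.02, 29.4 and 15.6 CPM in FGF2 and 40.1, 21.9 and 9.18 CPM in FGF10. Ift57, a peripheral subunit, was higher in all 3 DMSO libraries than in any library of SAG, PBS, FGF2 or FGF10. For Ift22 the values were 42.7, 32.3 and 39.2 CPM in DMSO, 15.4, 21.2 and 88.03 CPM in SAG, 24.8, 35.5, 51.9 and 36.03 CPM in PBS, 47.7, 62.2, 28.2 and 15.04 CPM in FGF2 and 48.6, 35.9 and 42.3 CPM in FGF10. This small GTPase-like subunit, with 2 of the windows printed above, had its lowest values in FGF2 replicate 4 and in SAG replicates 1 and 2. Ift172 was at 53.7, 24.4 and 49.3 CPM in DMSO and 33.2, 40.5 and 19.2 CPM in SAG, and at 30.4, 28.4, 19.96 and 39.1 CPM in PBS, 24.3, 26.8, 29.9 and 20.5 CPM in FGF2 and 35.2, 37.2 and 41.9 CPM in FGF10. The level of Ift46 was 40.7, 46.2 and 21.5 CPM in DMSO, 53.04, 16.8 and 30.4 CPM in SAG, 38.7, 47.2, 33.95 and 24.7 CPM in PBS, 26.9, 29.997, 21.6 and 11.8 CPM in FGF2 and 15.8, 29.2 and 38.04 CPM in FGF10. Ift172 and Ift46, which link the train to the membrane and to cargo, overlapped between each treatment and its vehicle, although Ift172 did not overlap between FGF2 and FGF10. For Ift88 the values were 0.369, 8.48 and 8.61 CPM in DMSO, 22.9, 6.34 and 28.8 CPM in SAG, 16.2, 10.2, 5.90 and 0 CPM in PBS, 17.6, 4.29, 7.58 and 0 CPM in FGF2 and 5.30, 7.13 and 14.3 CPM in FGF10. Ift88, a core subunit whose loss removes the cilium, was the lowest of the 11 and had a count of 0 in PBS replicate 4 and FGF2 replicate 4.

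IFT-A carries the return trains and lets membrane proteins enter. Its 4 genes summed to 97.3 to 193 CPM in DMSO, 125 to 155 in SAG, 97.2 to 199 in PBS, 128 to 206 in FGF2 and 149.8 to 179 in FGF10. Ift122 was at 78.7, 55.9 and 42.1 CPM in DMSO and 53.1, 53.04 and 54.05 CPM in SAG, and at 55.6, 65.8, 67.7 and 52.5 CPM in PBS, 40.7, 89.8, 49.5 and 49.6 CPM in FGF2 and 100.1, 46.6 and 59.9 CPM in FGF10. The level of Ift140 was 45.3, 23.8 and 3.26 CPM in DMSO, 24.2, 21.6 and 30.7 CPM in SAG, 70.9, 20.6, 42.1 and 17.4 CPM in PBS, 24.3, 35.9, 31.3 and 51.1 CPM in FGF2 and 6.42, 38.4 and 17.99 CPM in FGF10. For Wdr19 the values were 30.3, 28.99 and 44.9 CPM in DMSO, 36.03, 55.3 and 8.17 CPM in SAG, 7.37, 29.8, 34.2 and 1.39 CPM in PBS, 38.8, 18.5, 39.9 and 2.64 CPM in FGF2 and 22.02, 30.6 and 20.5 CPM in FGF10. Ift122, the highest, varied little in SAG, inside the DMSO range, whereas Ift140 and Wdr19 each had single low libraries, for example Wdr19 in PBS replicate 4.

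Of the motors, Kif3a and Kif3b are the motor chains of kinesin-2, Kifap3 is its cargo adaptor and Dync2h1 is the heavy chain of dynein-2. Kif3a was at 107, 104 and 138 CPM in DMSO and 96.8, 145 and 96.1 CPM in SAG, and at 66.3, 99.7, 95.2 and 48.97 CPM in PBS, 94.3, 63.1, 55.3 and 78.8 CPM in FGF2 and 69.3, 69.5 and 66.8 CPM in FGF10. The DMSO and SAG libraries overlapped, and all 4 PBS libraries lay below the DMSO libraries. The level of Kif3b was 48.8, 78.4 and 29.6 CPM in DMSO, 62.9, 39.1 and 41.9 CPM in SAG, 68.9, 79.2, 28.8 and 47.5 CPM in PBS, 56.4, 46.7, 42.5 and 33.3 CPM in FGF2 and 67.9, 54.6 and 22.8 CPM in FGF10. For Kifap3 the values were 114, 96.2 and 75.5 CPM in DMSO, 111, 56.5 and 76.3 CPM in SAG, 123, 62.8, 90.4 and 114 CPM in PBS, 85.3, 65.5, 81.2 and 135 CPM in FGF2 and 60.96, 103 and 103 CPM in FGF10. Dync2h1 was at 43.3, 34.2 and 35.5 CPM in DMSO and 73.9, 26.3 and 37.7 CPM in SAG, and at 48.5, 35.2, 59.6 and 37.1 CPM in PBS, 52.2, 42.5, 28.6 and 18.8 CPM in FGF2 and 57.4, 42.6 and 31.7 CPM in FGF10. None of these 3 separated a treatment from its vehicle, and within PBS, FGF2 and FGF10 every Kif3b value of replicates 3 and 4 lay below those of replicates 1 and 2 of the same group.

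The BBSome is the coat that takes receptors out of the cilium. The 7 genes summed to 78.2 to 122 CPM in DMSO, 63.4 to 86.2 in SAG, 64.3 to 104 in PBS, 56.4 to 88.1 in FGF2 and 94.8 to 133 in FGF10. The level of Bbs1 was 38.5, 34.8 and 34.1 CPM in DMSO, 7.20, 18.2 and 7.66 CPM in SAG, 4.89, 11.3, 10.4 and 22.4 CPM in PBS, 18.2, 37.7, 2.74 and 3.68 CPM in FGF2 and 27.5, 20.8 and 22.03 CPM in FGF10. For Bbs4 the values were 27.3, 16.9 and 25.8 CPM in DMSO, 2.93, 9.08 and 8.52 CPM in SAG, 28.8, 25.6, 24.7 and 12.7 CPM in PBS, 26.2, 22.9, 8.62 and 26.8 CPM in FGF2 and 27.7, 19.7 and 39.1 CPM in FGF10. Bbs1, the subunit that meets the GTPase Arl6 and cargo, was higher in the 3 DMSO libraries than in the 3 SAG and the 4 PBS libraries, and Bbs4 was lower in SAG than in DMSO in every library. Bbs9 was at 0, 8.54 and 8.56 CPM in DMSO and 16.9, 3.63 and 10.9 CPM in SAG, and at 16.3, 0, 0 and 20.1 CPM in PBS, 9.28, 5.72, 0.146 and 5.77 CPM in FGF2 and 11.9, 11.97 and 16.5 CPM in FGF10. The level of Bbs5 was 6.05, 1.73 and 10.2 CPM in DMSO, 3.44, 0.506 and 9.54 CPM in SAG, 0, 0, 9.01 and 0 CPM in PBS, 2.39, 2.18, 0 and 7.05 CPM in FGF2 and 12.7, 4.84 and 7.56 CPM in FGF10. Bbs9, a scaffold subunit, and Bbs5, which binds phosphoinositides, were the lowest members of the coat, with a count of 0 in 3 and 4 libraries.

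Arl3 is the GTPase that releases lipid-anchored cargo inside the cilium, Arl13b is the membrane GTPase that activates it, Inpp5e is a phosphoinositide phosphatase delivered by this route, and Tulp3 brings receptors such as GPR161 in together with IFT-A. For Arl3 the values were 108, 93.9 and 179 CPM in DMSO, 60.3, 163 and 87.9 CPM in SAG, 119, 231, 175 and 151 CPM in PBS, 119, 159.6, 164 and 137 CPM in FGF2 and 197, 205 and 158 CPM in FGF10. Arl13b was at 15.9, 11.4 and 4.24 CPM in DMSO and 77.7, 18.5 and 18.2 CPM in SAG, and at 33.7, 33.9, 20.8 and 6.52 CPM in PBS, 4.997, 43.5, 18.4 and 8.65 CPM in FGF2 and 20.7, 22.4 and 16.1 CPM in FGF10. The lowest SAG value of Arl13b lay above the highest DMSO value, and SAG replicate 1 stood above all other libraries. The level of Inpp5e was 13.2, 13.7 and 43.7 CPM in DMSO, 25.7, 19.98 and 0 CPM in SAG, 8.72, 5.90, 24.9 and 15.4 CPM in PBS, 17.3, 14.1, 5.78 and 20.6 CPM in FGF2 and 3.37, 19.5 and 4.33 CPM in FGF10. For Tulp3 the values were 23.2, 40.6 and 38.9 CPM in DMSO, 33.3, 19.1 and 61.9 CPM in SAG, 25.6, 36.3, 53.996 and 34.9 CPM in PBS, 22.9, 20.7, 38.3 and 63.5 CPM in FGF2 and 77.9, 25.2 and 71.04 CPM in FGF10. Both overlapped between groups, and Inpp5e had no count in SAG replicate 3.

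Among the Hedgehog regulators, Sufu holds the GLI factors, Kif7 organizes the ciliary tip where they gather, and Evc and Evc2 bind Smoothened near the ciliary base. Sufu was at 37.3, 20.3 and 20.5 CPM in DMSO and 13.5, 51.3 and 28.1 CPM in SAG, and at 30.8, 16.6, 17.4 and 25.8 CPM in PBS, 23.1, 27.02, 26.8 and 6.71 CPM in FGF2 and 19.4, 27.5 and 38.9 CPM in FGF10. The level of Kif7 was 44.7, 4.70 and 11.4 CPM in DMSO, 0.316, 12.5 and 1.85 CPM in SAG, 0, 6.32, 17.4 and 1.87 CPM in PBS, 10.2, 3.72, 2.82 and 0.727 CPM in FGF2 and 3.64, 13.6 and 19.1 CPM in FGF10. Both overlapped between groups, with the DMSO mean of Kif7 set by replicate 1. For Evc the values were 14.2, 26.7 and 0.583 CPM in DMSO, 0.832, 16.99 and 35.3 CPM in SAG, 5.05, 14.3, 8.64 and 4.68 CPM in PBS, 2.06, 22.6, 25.1 and 5.50 CPM in FGF2 and 4.92, 18.4 and 11.03 CPM in FGF10. Evc2 was at 2.09, 0.983 and 5.17 CPM in DMSO and 12.2, 7.09 and 23.8 CPM in SAG, and at 5.42, 4.68, 35.04 and 9.02 CPM in PBS, 6.96, 3.43, 15.9 and 8.28 CPM in FGF2 and 8.63, 4.93 and 7.51 CPM in FGF10. Evc overlapped between DMSO and SAG, whereas the 3 SAG values of Evc2 lay above the 3 DMSO values.

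The transition zone genes form the gate. They summed to 147 to 155 CPM in DMSO, 105 to 172 in SAG, 94.4 to 138 in PBS, 30.8 to 148 in FGF2 and 107 to 193 in FGF10, and the lowest value was that of FGF2 replicate 4. The level of Cep290 was 46.01, 60.2 and 75.6 CPM in DMSO, 71.3, 27.4 and 28.8 CPM in SAG, 37.2, 40.3, 34.8 and 56.9 CPM in PBS, 33.2, 55.7, 33.04 and 5.67 CPM in FGF2 and 66.03, 73.3 and 19.996 CPM in FGF10. For Tctn2 the values were 34.2, 13.1 and 9.07 CPM in DMSO, 21.6, 20.1 and 33.2 CPM in SAG, 15.8, 33.1, 32.96 and 16.6 CPM in PBS, 7.81, 12.3, 25.4 and 2.18 CPM in FGF2 and 21.9, 12.8 and 6.52 CPM in FGF10. Cep290, which links membrane and microtubules, and the tectonic gene Tctn2 both had their lowest value in FGF2 replicate 4. B9d1 was at 28.6, 26.3 and 22.5 CPM in DMSO and 10.6, 3.54 and 7.91 CPM in SAG, and at 37.1, 26.4, 10.98 and 9.08 CPM in PBS, 20.3, 24.9, 20.2 and 12.9 CPM in FGF2 and 26.9, 45.2 and 27.4 CPM in FGF10. The level of Tctn3 was 1.07, 15.8 and 7.79 CPM in DMSO, 0, 0 and 0 CPM in SAG, 0, 0, 5.50 and 0 CPM in PBS, 13.2, 1.55, 0 and 0 CPM in FGF2 and 0.426, 8.41 and 0 CPM in FGF10. B9d1, a B9-domain protein, was lower in every SAG than in every DMSO library. Tctn3 had no count in 9 of the 17 libraries, among them all 3 SAG and 3 of the 4 PBS libraries. The other 9 members (Ift27, Ift52, Ift80, Wdr35, Bbs2, Bbs7, Arl6, Tctn1 and Mks1) had mean levels of 9.66 to 37.4 CPM and overlapped between each treatment and its vehicle.

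The comparison of SAG with DMSO asks whether cultures with an active Hedgehog pathway express the cilium machinery at another level. No member was called. At an adjusted p under 0.05 (edgeR's quasi-likelihood test, Benjamini-Hochberg over all genes), the count was 0 of 40, with 0.0638% of the 12538 tested genes called, and at an unadjusted p under 0.05 it was 2 of 40 (5%), against 5.69% of all tested genes. DESeq2 called 1 of 40 (2.5%), Tctn3, against 3.02% of all genes by the same test. Of the members, 22 of 40 (55%) had a log2(fold-change) below 0, against 51.1% of all genes, and the median was -0.04 against -0.02. This balance turned with single libraries: it was 18 of 40 with a median of 0.11 without DMSO replicate 3, 19 of 40 with 0.06 without DMSO replicate 2, and 18 of 40 with 0.04 without SAG replicate 2. The 3 SAG and 3 DMSO libraries did not overlap for 7 members (17.5%), against 14.2% of all tested genes.

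Of the 7, Tctn3, Bbs1, Ift57, B9d1 and Bbs4 were lower with SAG (5 members, against 8.21% of all genes in that direction), and Arl13b and Evc2 were higher (2 members, against 5.96%). Tctn3 (chr19:40596446-40612233, GRCm38, minus strand) had 52, 724 and 294 counts in DMSO and 0 in each SAG library. The DMSO mean was 109 times a floor of 3 counts per SAG library, and 58.7 times that floor without DMSO replicate 2. These ratios leave out the spread between cultures and are no lower bound on the change. Over all groups, Tctn3 had a count of 0 in 9 libraries and was above 0 in 8. Its adjusted p in edgeR's quasi-likelihood test was 0.592. Bbs1 (chr19:4886878-4906628, minus strand) was at 11.02 ± 6.22 CPM (SD, n = 3) in SAG against 35.8 ± 2.35 CPM (SD, n = 3) in DMSO, a log2(fold-change) of -1.68, SE 0.74, adjusted p = 0.826. Ift57 was at 22.5 ± 9.43 CPM (SD, n = 3) against 47.7 ± 5.42 CPM (SD, n = 3), a log2(fold-change) of -1.06, SE 0.54, adjusted p = 0.992. None of these differences passed the test.

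For B9d1 the log2(fold-change) was -1.79, SE 0.96, adjusted p = 1.00, and for Bbs4 it was -1.74, SE 1.05, adjusted p = 1.00. B9d1 was at 7.34 ± 3.54 CPM (SD, n = 3) in SAG and 25.8 ± 3.07 CPM (SD, n = 3) in DMSO. Of the higher pair, Arl13b had a log2(fold-change) of 1.87, SE 0.86, adjusted p = 0.887, which was 0.83 without SAG replicate 1, and Evc2 one of 2.42, SE 1.67, adjusted p = 1.00. With 3 libraries against 3, an exact two-sided permutation test cannot go below p = 0.1. Each of the 7 had this value, which follows from the lack of overlap by which they were picked.

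**Figure D2:**
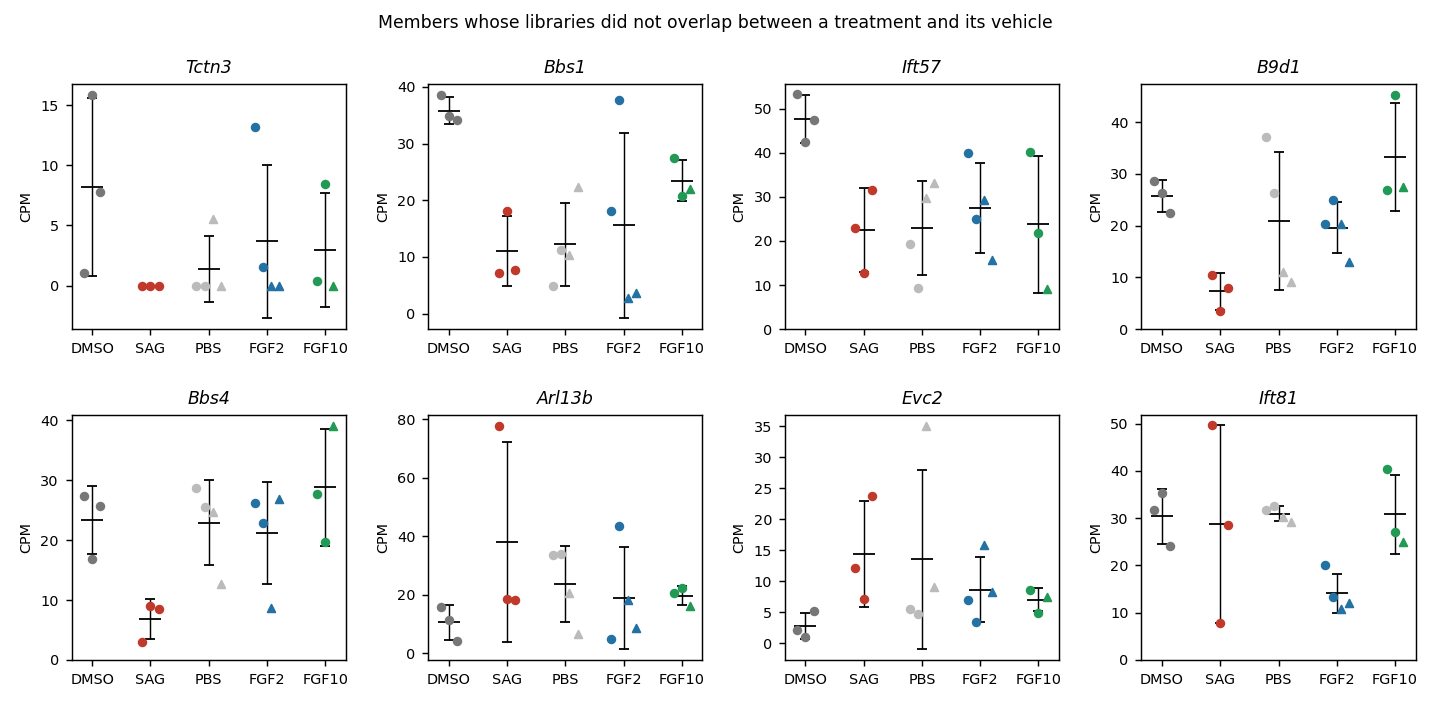
CPM of the 8 members whose libraries did not overlap between a treatment and its vehicle, in each library of the 5 groups, with bars for the mean and SD; triangles mark replicates 3 and 4 of the FGF experiment. Tctn3 is at 0 in all 3 SAG libraries and also in 3 of 4 PBS libraries, and the 4 FGF2 points of Ift81, from 10.7 to 20.1 CPM, sit below the 4 PBS points.

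The regulators that act on the pathway itself were not called either. Sufu had a log2(fold-change) of 0.28, SE 0.67, adjusted p = 1.00, Kif7 of -2.02, SE 1.55, adjusted p = 1.00 (-0.68 without DMSO replicate 1 and -4.18 without SAG replicate 2), Evc of 0.39, SE 1.43, adjusted p = 1.00 and Tulp3 of 0.18, SE 0.57, adjusted p = 1.00. Their 95% intervals were wide, for example -1.20 to 1.75 for Sufu and -5.41 to 1.37 for Kif7 on the log2 scale. All 4 reached past 1 log2 unit in at least 1 direction. The interval lay within 1 log2 unit of 0 for 4 members, Ift20, Kif3a, Kifap3 and Ift122, all of them among the 6 highest. Of the 38 other cilium genes listed (further IFT, BBSome, transition zone and basal body genes), 36 were found and 32 tested, and 0 were called, with 16 below and 16 above 0. The smallest unadjusted p among them was that of Tmem216, a membrane protein of the transition zone, at 12.4 ± 5.93 CPM (SD, n = 3) against 39.01 ± 6.41 CPM (SD, n = 3) (log2(fold-change) -1.63, SE 0.70, adjusted p = 0.805).

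**Figure D3:**
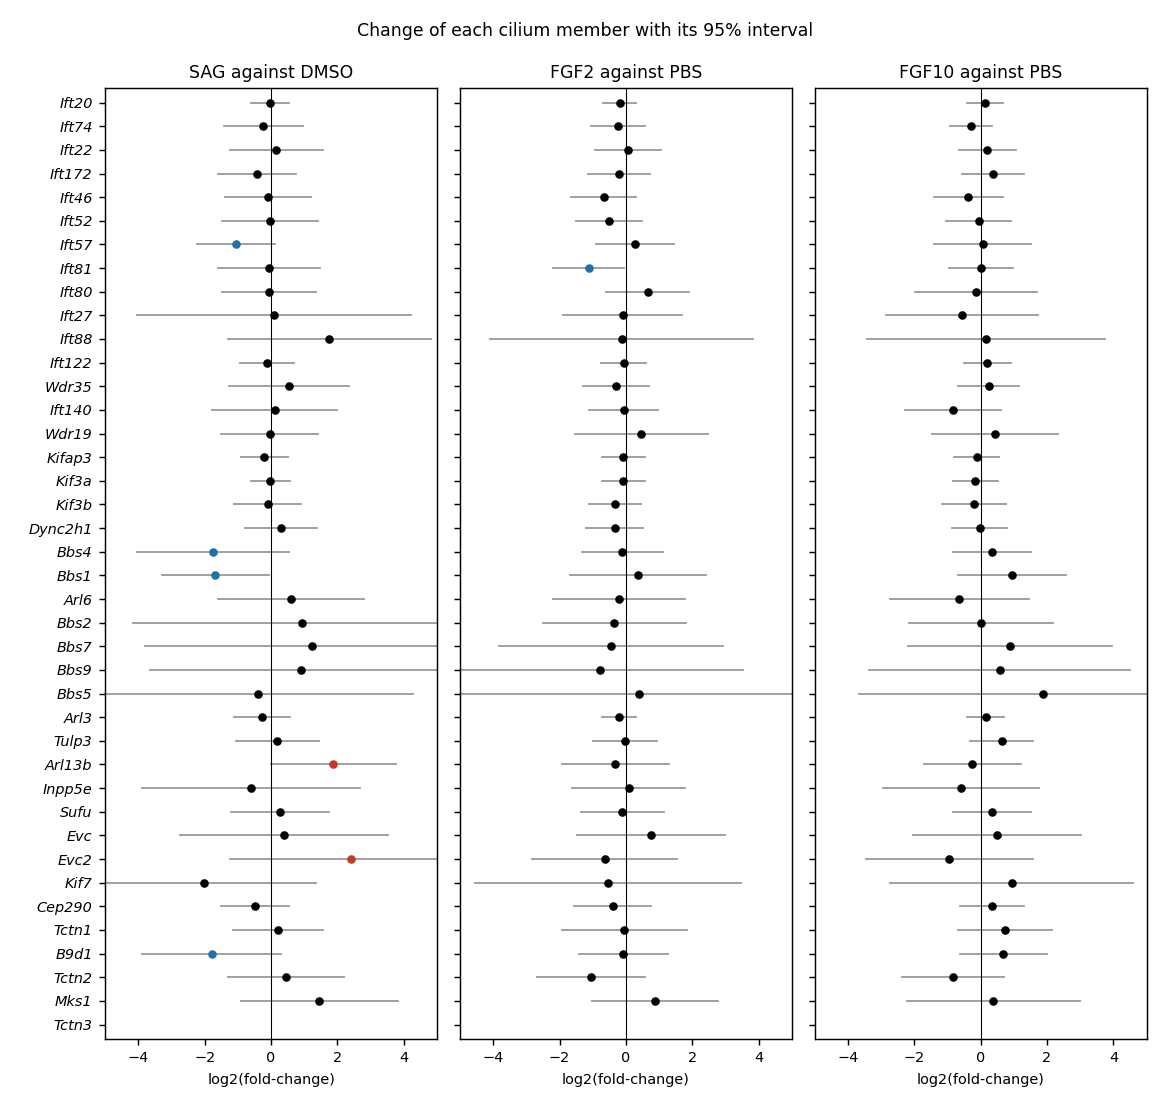
Log2(fold-change) of each tested member with its 95% interval for SAG against DMSO, FGF2 against PBS and FGF10 against PBS, with axes from -5 to 5 and longer intervals cut at the edge. Red marks members higher and blue marks members lower in every library of the treatment; Tctn3 is not drawn. Most intervals cross 0, and those of Ift20, Kif3a, Kifap3 and Ift122 lie within 1 log2 unit of 0 in every panel. Arl3 also lies within this bound for FGF2 against PBS, and 8 members do for FGF10 against PBS.

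For FGF2, 0 of 39 tested members were called against PBS, as were 0% of all 12744 tested genes, and Tctn3 did not pass the filter on low counts. At an unadjusted p under 0.05 the count was 1 of 39 (2.56%), against 1.75% of all genes, and DESeq2 called 0 members, against 0.0713% of all genes. That member was Ift81 (chr5:122550204-122614518, minus strand), the tubulin-binding partner of Ift74, at 14.1 ± 4.18 CPM (SD, n = 4) in FGF2 and 30.97 ± 1.55 CPM (SD, n = 4) in PBS. Its log2(fold-change) was -1.13, SE 0.50, adjusted p = 1.00. In an exact two-sided permutation test of its CPM the p was 0.0286, the smallest that 4 libraries against 4 allow, with 40 members tested in this way. This p follows from the lack of overlap between the FGF2 and PBS libraries of Ift81, the only such member (2.56%, against 2.45% of all genes and 1.23% in the lower direction). Within replicates 1 and 2 its log2(fold-change) was -0.93 (SE 0.68), and within replicates 3 and 4 it was -1.38 (SE 0.76). Ift46 and Tctn2 followed by p, with log2(fold-change) values of -0.67, SE 0.45, adjusted p = 1.00 and -1.04, SE 0.76, adjusted p = 1.00, and in both the libraries overlapped.

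Although no member was called, 30 of the 39 tested members (76.9%) had a log2(fold-change) below 0 in FGF2, against 49.9% of all tested genes, with a median of -0.13 against 0.00. All 4 motor genes, 8 of 11 IFT-B genes and 4 of 5 tested transition zone genes were among them. The members share the same 8 libraries and are not independent of each other. The direction was uneven between replicates: within replicates 1 and 2, 20 of 40 members were below 0 with a median of -0.00, and within replicates 3 and 4, 29 of 39 with a median of -0.37. With single libraries left out the count was 24 to 29, lowest without PBS replicate 3 (24 of 39, median -0.12). Without FGF2 replicate 4 the count was 25 of 40 and the median -0.12. In that library the 40 members summed to 979 CPM and the motile cilium markers to 88.8 CPM, the lowest of all 17 for both, and the part of the latter in the former was not tested. Of the 35 other cilium genes tested, 17 were below 0, with a median of 0.03.

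**Figure D4:**
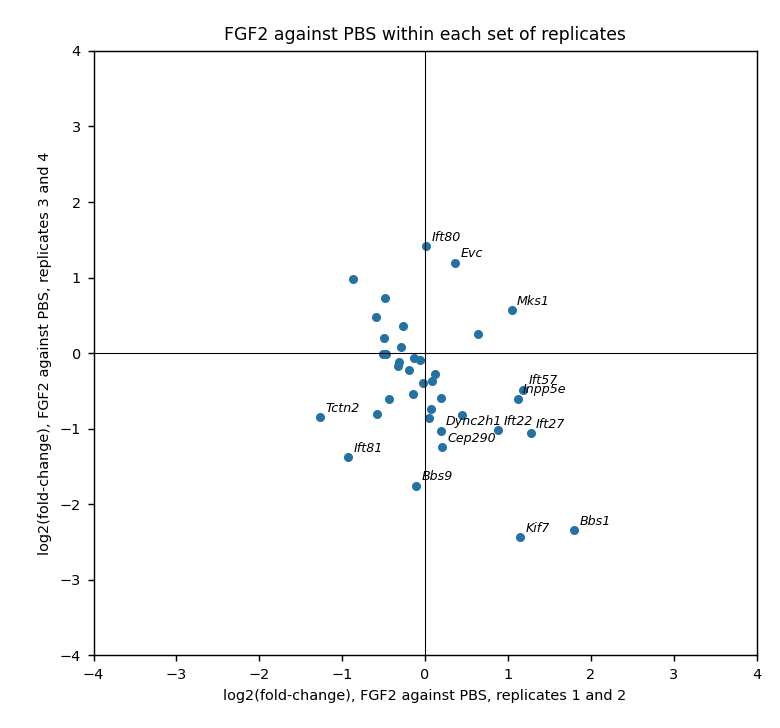
Log2(fold-change) of FGF2 against PBS for 38 members, within replicates 1 and 2 on the horizontal axis and within replicates 3 and 4 on the vertical axis. Of the points, 20 lie left of 0 and 28 lie below 0; Bbs5 falls outside the axes, which end at 4, and Tctn3 was not tested in 1 of the sets.

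Whether the effect of FGF2 differed between the replicate sets was tested by an interaction term. It called 0 of 40 members, against 0.0331% of 15100 genes, with 3 members (7.5%) at an unadjusted p under 0.05, against 5.11%. They were Tctn3, Ift22 (log2 difference -1.90, SE 0.83, adjusted p = 0.906) and Bbs1 (log2 difference -4.14, SE 1.91, adjusted p = 0.906). For Bbs1 the FGF2 values were 18.2 and 37.7 CPM in replicates 1 and 2, above the PBS values of 4.89 and 11.3 CPM, and 2.74 and 3.68 CPM in replicates 3 and 4, below the PBS values of 10.4 and 22.4 CPM. DESeq2 called 3 members in this test (7.5%), Bbs1, Tctn3 and Bbs5, against 5.84% of all genes.

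FGF10 was set against the same PBS libraries. Of the 40 members 0 were called, and 0% of 13309 genes, with 0 members at an unadjusted p under 0.05 against 2.29% of all genes, and 0 called by DESeq2 (0.283% of all genes). No member had non-overlapping libraries, against 4.79% of all genes. Here 16 of 40 members (40%) were below 0, against 50.1% of all genes, and the median was 0.15. BBSome genes were above 0 in 6 of 7 and transition zone genes in 5 of 6, whereas the 4 motor genes were below 0. The members with the smallest p were Tulp3, with a log2(fold-change) of 0.63, SE 0.44, adjusted p = 1.00, Ift140 with -0.84, SE 0.68, adjusted p = 1.00, and Bbs1 with 0.94, SE 0.76, adjusted p = 1.00. The 95% interval lay within 1 log2 unit of 0 for 8 members, Ift20, Ift74, Ift81, Ift122, Kif3a, Kifap3, Dync2h1 and Arl3. For Ift81 it ran from -0.97 to 0.96.

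The ligands were compared directly at the same dose and time. FGF2 against FGF10 gave 0 of 40 calls, with 0% of 13493 genes called, 0 at an unadjusted p under 0.05 against 2.4% of all genes, and 0 by DESeq2 (0.212% of all genes). The libraries did not overlap for 4 members (10%), against 4.9% of all genes, and FGF2 was the lower in each of them (2.57% of all genes in that direction). Ift81 was at 14.1 ± 4.18 CPM (SD, n = 4) against 30.8 ± 8.37 CPM (SD, n = 3) (log2(fold-change) -1.12, SE 0.55, adjusted p = 1.00). B9d1 was at 19.6 ± 4.97 CPM (SD, n = 4) against 33.2 ± 10.4 CPM (SD, n = 3) (log2(fold-change) -0.75, SE 0.49, adjusted p = 1.00). Ift172 was at 25.4 ± 3.98 CPM (SD, n = 4) against 38.1 ± 3.45 CPM (SD, n = 3) (log2(fold-change) -0.58, SE 0.41, adjusted p = 1.00), and Bbs9 at 5.23 ± 3.77 CPM (SD, n = 4) against 13.4 ± 2.63 CPM (SD, n = 3) (log2(fold-change) -1.36, SE 1.30, adjusted p = 1.00). None of the 4 passed the test. Among all members 26 of 40 (65%) were below 0, against 49.5% of all genes, with a median of -0.28, and without FGF2 replicate 4 the count was 22 of 40 and the median -0.12. FGF10 has no replicate 4, so the replicate sets are unbalanced in this comparison. Within replicates 1 and 2 the count was 22 of 40 (55%, against 50.3% of all genes) and the median -0.05. With the replicate set as a covariate it was 25 of 40, with a median of -0.25.

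The vehicle groups differed in vehicle, start day and length of culture, which cannot be told apart. In PBS against DMSO 0 of 40 members were called, and 0% of 13271 genes, with 1 at an unadjusted p under 0.05 (2.5%, against 4.37%) and 0 called by DESeq2 (0.969% of all genes). The libraries did not overlap for 3 members (7.5%, against 6.44% of all genes), all lower in PBS (3.41% of all genes in that direction). Bbs1 was at 12.2 ± 7.32 CPM (SD, n = 4) in PBS (log2(fold-change) -1.53, SE 0.68, adjusted p = 1.00), Ift57 at 22.9 ± 10.7 CPM (SD, n = 4) (log2(fold-change) -1.04, SE 0.51, adjusted p = 1.00) and Kif3a at 77.6 ± 24.1 CPM (SD, n = 4) (log2(fold-change) -0.57, SE 0.30, adjusted p = 1.00). Bbs1 and Ift57 are also among the members that did not overlap between SAG and DMSO, and both comparisons use the same 3 DMSO libraries. Members below 0 were 20 of 40 (50%), against 48.9% of all genes.

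Most calls in the FGF experiment lay between its replicates. With the treatment as a covariate, 4.03% of 14553 genes were called between replicates 3 and 4 and replicates 1 and 2, and of the members 0 of 40 were called. At an unadjusted p under 0.05 the members numbered 2 (5%), against 14.1% of all genes, while DESeq2 called 2 (5%), Tctn3 and Kif3b, against 13.6% of all genes. No member had non-overlapping libraries between the sets, against 4.81% of all genes. In the PBS group, Kif3b stood at 28.8 and 47.5 CPM in replicates 3 and 4 against 68.9 and 79.2 CPM in the first pair, and over the groups its log2(fold-change) was -0.86, SE 0.29, adjusted p = 0.127. Tulp3 had a log2(fold-change) of 0.79, SE 0.35, adjusted p = 0.291 and Ift74 of -0.55, SE 0.28, adjusted p = 0.415. Of the 40 members 30 (75%) were below 0 in replicates 3 and 4, against 51.7% of all genes, with a median of -0.22 against -0.03. Without FGF2 replicate 4 the count was 25 of 40. By role the 30 were 6 of 6 transition zone, 4 of 4 IFT-A, 9 of 11 IFT-B and 3 of 4 motor genes. The rest were 4 of 7 BBSome, 2 of 4 ARL and lipidated cargo and 2 of 4 Hedgehog regulator genes. The other cilium genes gave 24 of 35 below 0 and 0 calls. In the same test, 7 of 10 cell cycle genes rose and 3 of 8 tested motile cilium markers fell. Of the 10 astrocyte markers 4 fell and 1 rose, and their sum was 4630 to 5471 CPM in replicates 1 and 2 and 3394 to 3913 CPM in replicates 3 and 4. One gene each fell among the 7 oligodendrocyte lineage, 6 neuron and 3 endothelial or mural genes tested. The part of these lists in the shift of the members was not tested. The labels name no batch for this split, which follows the replicate numbers.

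**Figure D5:**
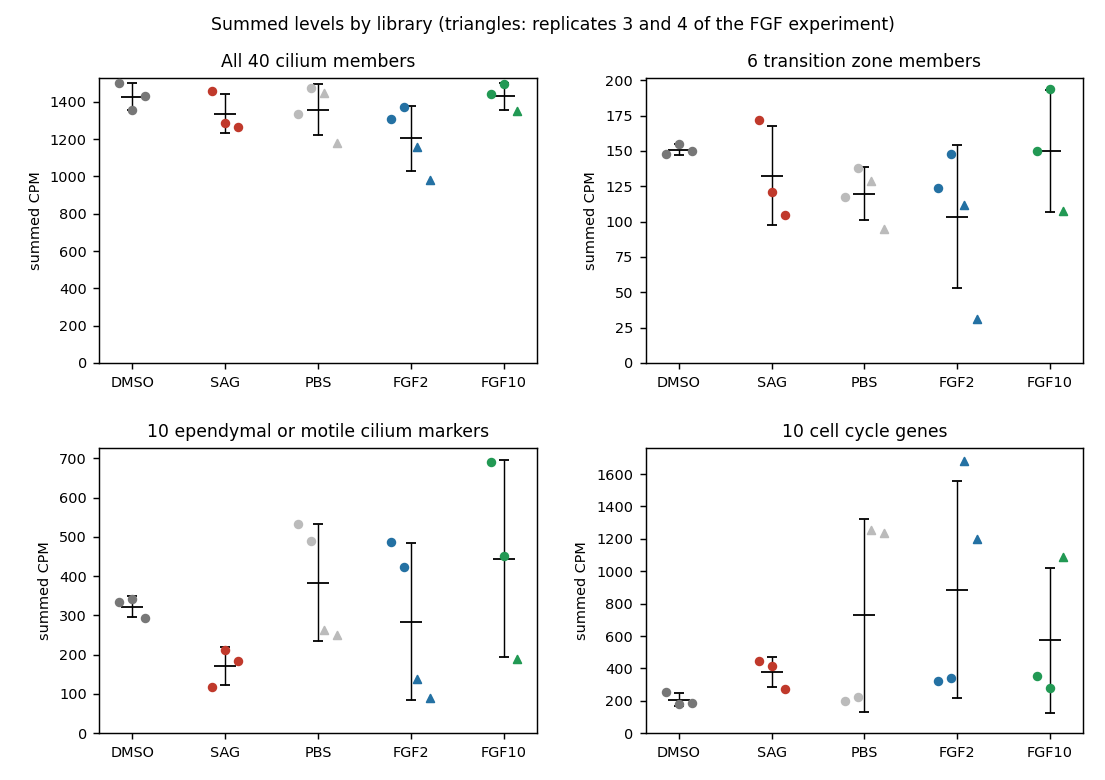
Summed CPM in each library of the 40 members, the 6 transition zone members, 10 ependymal or motile cilium markers and 10 cell cycle genes, with bars for the mean and SD of each group; triangles mark replicates 3 and 4 of the FGF experiment. The member sum stays between 979 and 1499 CPM, whereas the cell cycle sum splits into 196 to 355 CPM and 1090 to 1681 CPM between the replicate sets.

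The members with a promoter match to the X-box pattern did not share 1 direction across the comparisons. In SAG against DMSO, 3 of the 8 were below 0, with log2(fold-change) values from -1.74 to 1.45, against 16 of the 29 other members with a promoter sequence. In FGF2 against PBS 4 of the 8 were below 0, against 24 of 28 others, and in FGF10 against PBS 1 of the 8, against 13 of 29 others. Between replicate sets 7 of 8 were below 0, against 20 of the 29 others. These counts are a description, and the difference between the sets of members was not tested.

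Overlapping genes could add reads to some members where the counting ignored strand, which is not given in the sources used here. In GENCODE M21 (GRCm38) 0 of the 40 members had a same-strand gene over their last 1000 bases, and 7 had an opposite-strand gene there: Ift57 (Gm15518), Bbs4 (Adpgk), Inpp5e (Pmpca), Kif7 (Ticrr), Evc (Crmp1), Cep290 (4930430F08Rik) and Tctn1 (Hvcn1).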

How the data were processed

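RNA was measured by 3′-end sequencing (QuantSeq) in 17 mouse astrocyte libraries. The authors deposited raw counts per gene; per the labels and their processing notes reads were aligned with STAR to GRCm38, and counting settings for strand are not given in the sources used here. The SAG libraries are named for Shh in the count table. The methods describe 3 FGF2 replicates, the labels list 4, and all 4 were used. Rows of 114 spike-ins (at most 86 counts in a library) were left out.

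Counts were scaled by TMM, filtered with filterByExpr (minimum count 10, minimum total 15) and tested with edgeR 4.0.16 (quasi-likelihood F-test, R 4.3.3, limma 3.58.1) on the groups of each comparison, with Benjamini-Hochberg adjustment over all tested genes and a threshold of 0.05. Scripts were tested on simulated data. The members and lists were chosen with earlier results of these data known. Values in every library are given for members that were called, for the 3 smallest p-values in each comparison, for the highest and lowest member of each role, for members without overlap and for the Hedgehog regulators, and otherwise members are counted. Alternatives were DESeq2 1.42.0, its size factors, no filter, a mean count filter, all groups in 1 fit, a replicate block and leaving out each library. Motif searches and annotation used RefSeq promoters and GENCODE M21. Counts of library pairs within a group differed by more than sampling noise (chi-square over degrees of freedom 152 to 532 in 21 pairs), so no library was counted as a duplicate.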

Additional observations from a re-analysis of the deposited data

Results flagged for a closer look

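In groups of 4 libraries, single values of the 31 members whose levels are given by library stood apart from the rest of their group in 4 of 62 combinations of member and group, by Dixon's criterion at its 95% critical value, which chance exceeds in about 1 of 20 groups. Of these 4, 3 lay in PBS replicate 3: Bbs5 at 9.01 CPM with the other 3 PBS libraries at 0, Evc2 at 35.04 CPM with the others at 4.68 to 9.02 CPM, and Tctn3 at 5.50 CPM with the others at 0. The remaining value was that of Tctn3 in FGF2 replicate 1, at 13.2 CPM with the others between 0 and 1.55 CPM. All 3 genes are low members with wide spread between replicates. By edgeR, Bbs5 and Evc2 were not called in FGF2 or FGF10 against PBS, Tctn3 was not called in FGF10 and not tested in FGF2, and DESeq2 called Tctn3 and Bbs5 in the test of the FGF2 effect between replicate sets.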

How the results depend on the processing

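The count of called members was 0 in each of the 7 comparisons, and it stayed 0 with the size factors of DESeq2, without a filter, with a mean count filter, with all 5 groups in 1 fit, with a replicate block and with each library left out (0 to 0), wherever these could be run. DESeq2's own test moved it to 1 for SAG against DMSO (Tctn3; 3.02% of all genes called), 2 between replicate sets (Tctn3 and Kif3b; 13.6%) and 3 for the FGF2 interaction (Bbs1, Tctn3 and Bbs5; 5.84%), and the cause was not tested. Among named members, Evc in SAG against DMSO reversed to -0.31 with the replicate block, and with libraries left out Evc ranged from -0.62 to 1.29, Tulp3 from -0.37 to 0.51 and Sufu from -0.29 to 0.64, while Kif7 kept its sign from -4.18 to -0.68. Over all genes in SAG against DMSO, 8 were called, 7 with DESeq2's size factors, 42 with a mean count filter, 76 without a filter, 368 by DESeq2, 4 with all groups, 12 with the block and 1 to 7 with a library left out. DESeq2 called 9 genes for FGF2, 37 for FGF10, 28 between the ligands and 126 between the vehicles, where edgeR called 0. Between replicate sets 586 genes were called, 812 to 856 under other filters and 1980 by DESeq2, and for the interaction 5, 18 to 20 and 882, with 15 to 218 when a library was left out (218 without PBS replicate 2). Same-numbered libraries correlated weakly in their deviations from the group means (-0.01 to 0.12, against -0.06 to 0.11 for the best other-numbered library). These values do not settle whether replicate numbers pair the libraries. The replicate block called 0 members, and it put 27 of 39 below 0 for FGF2. The median SE of the members' log2(fold-change) was 0.72 for SAG and 0.58 for FGF2, and differences of over 2 SE, such as Bbs1 in SAG, were not called.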
